A study of Mus musculus with 6 samples.

Results

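The genes described here encode the presynaptic vesicle release machinery, measured in hippocampi of 3 Ahr-KO and 3 wild-type mice with 1 whole-transcript array per mouse. The list was written down by name: 40 genes of synaptic vesicles, the active zone and vesicle recycling, of which 39 had a probe set that the platform annotation pairs with that gene alone, among 22180 genes measured in this way. The one left out, Doc2a, shares its probe set with Ino80e and was not analysed here. Ahr-KO mice lack the aryl hydrocarbon receptor, which acts as a transcription factor once a ligand binds, and the study asks how its loss bears on hippocampal neurogenesis, granule neuron shape and synaptic maturation. The labels give tissue and genotype, with no allele, strain, age or treatment, and no cell type to which the deletion is confined. Values are log2 signals normalised over the 6 arrays, and each difference is the Ahr-KO mean less the wild-type mean, on the same scale. The error after ± on a difference is limma's standard error (SE).

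At a presynaptic terminal, transmitter is pumped into vesicles by vesicular transporters, and vesicles are held near the membrane by synapsins, Rab3 GTPases and the scaffold of the active zone. RIM and Munc13 proteins prepare the vesicle, SNARE proteins of vesicle and membrane zip together under control of complexin, and calcium binding to synaptotagmin triggers fusion. NSF and its adaptors then take the SNARE complex apart, while dynamin, amphiphysin and synaptojanin retrieve the membrane. In the hippocampus most terminals release glutamate or GABA.

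Ahr, the deleted gene, read 6.62, 6.91 and 6.74 log2 on Ahr-KO arrays 1 to 3, against 7.68, 7.50 and 7.44 on wild-type arrays 1 to 3, so that every Ahr-KO array lay below every wild-type array (-0.78 ± 0.10; limma, unadjusted p = 4.33e-05, adjusted p = 0.320). The labels do not say which part of the gene is deleted, so this probe set checks the genotypes only as far as its probes lie there. Prox1, which specifies dentate granule neurons, lay between 9.78 and 10.02 log2 in Ahr-KO and between 9.48 and 9.79 in wild type, above the median of each array. Choroid plexus genes stood apart on 1 array of each genotype. The mean of 11 of 14 listed choroid plexus markers was 1.24 log2 above its mean over the 6 arrays on array 1 of Ahr-KO and 0.73 above it on array 2 of wild type, and between 0.44 and 0.55 below it on the other 4. For the genes that were lowest of their genotype on both arrays, differences with those arrays left out are given below.

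None of the 39 release genes passed the test across all genes, in which 0% of the 22180 genes passed (limma with Benjamini-Hochberg adjustment, adjusted p under 0.05), and 1371 of them had an unadjusted p under 0.05. Adjusted p ran from 0.797 to 0.999 over the 39 genes. At unadjusted p under 0.05, Unc13b was lower in Ahr-KO and no gene was higher. That is 2.56% of the 39 lower, where 2.65% of all genes were lower, 3.53% higher and 6.18% either way at this level. The genotypes did not overlap for 3 of 39 genes (7.69%), 1 with all Ahr-KO arrays above (Sv2c) and 2 with all below (Unc13b and Syt4), where 11.9% of all genes did not overlap, 6.18% with Ahr-KO above and 5.75% with it below. These shares are close to or under those of all genes.

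The differences were small for most of the machinery. The median over the 39 genes was -0.01 log2 and that over all genes 0.00. The median size without regard to sign was 0.05 for the release genes and 0.07 for all genes. Of the 39 means 16 were higher in Ahr-KO and 23 lower (59.0%, against 49.3% of all genes). In 28 of 39 genes the difference was under 0.1 log2 in either direction (71.8%, against 62.4% of all genes). For 21 genes the 95% interval lay inside ±0.25 log2, a change of at most 1.19-fold (53.8%, against 29.1% of all genes). For 34 it lay inside ±0.5, at most 1.41-fold (87.2%, against 91.5% of all genes). All 39 genes lay above the median level of all genes (lowest 6.95 log2, against 6.50). These comparisons, and those of spread below, thus set them against genes that are in part dimmer. The 5 genes with wider intervals were Cplx3, Slc17a6, Stx1a, Unc13c and Rims3. For these 5 a decrease of 1.41-fold in Ahr-KO could not be set apart from the spread between mice. An increase of that size lay inside the interval of Cplx3 only. No exact permutation test was run for single genes, since 0.1 is the smallest p that 3 arrays per genotype allow.

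**Figure D1:**
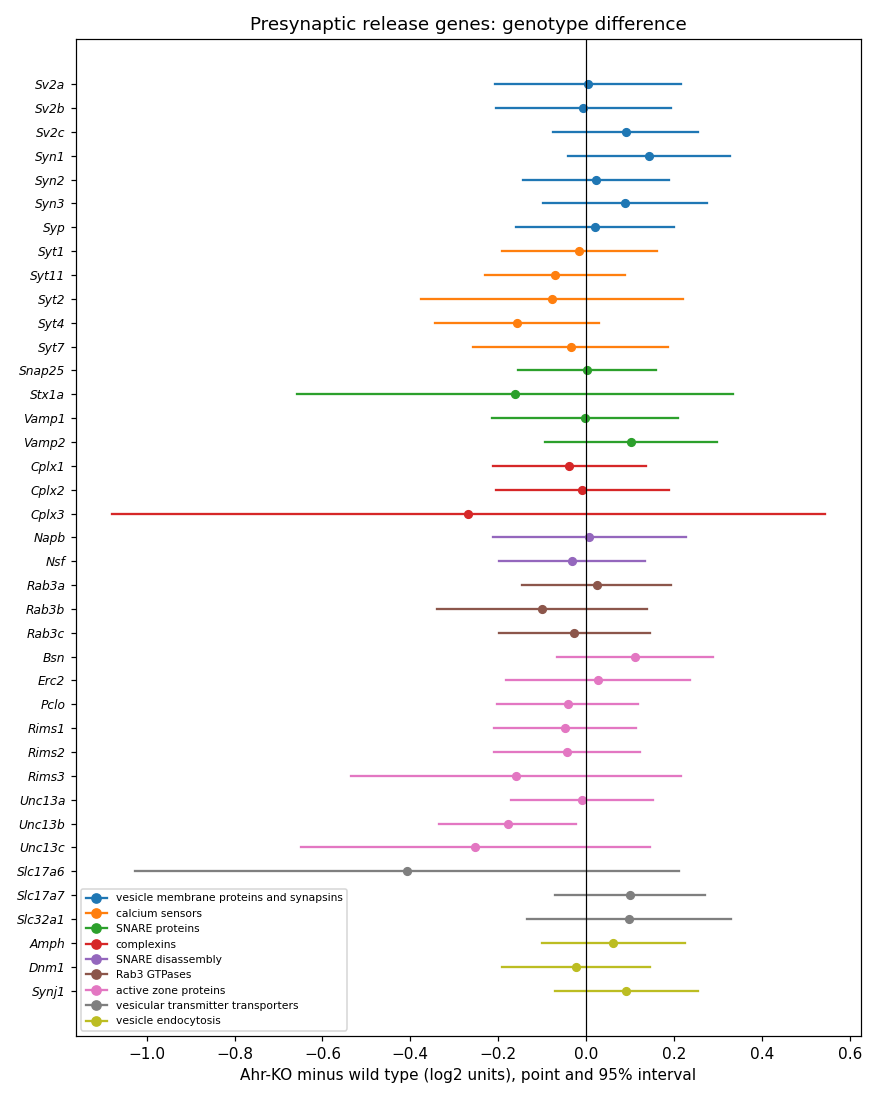
Difference between genotypes (Ahr-KO minus wild type, log2 units, x axis) for each of the 39 release genes, grouped by role in colour. Points are limma estimates and bars 95% intervals (3 arrays per genotype). Only the interval of Unc13b, from -0.34 to -0.02, does not contain 0, and those of Cplx3 and Slc17a6 are the widest.

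Promoters were examined because the receptor, with its partner ARNT, binds DNA at the core letters GCGTG. RefSeq windows (GRCm38.p6) of 250 bases before a start site were given for 33 of the 39 genes, 42 windows in all. The letters GCGTG on either strand, with overlapping matches counted, were found in 22 of 42 windows (52.4%) and in 28.2% of 32851 windows of all genes. The release gene windows were also richer in CG pairs, with a median of 11.5 per window against 6 over all windows. Among windows with 10 or more CG pairs, 73.9% of 23 release gene windows and 52.9% of all windows held the letters, and among those with fewer, 26.3% of 19 and 13.1%. Within these 2 bands CG pairs were not matched, and the letters themselves hold a CG pair. Some genes had more than 1 window. Counted by gene, 60.6% of 33 release genes and 30.9% of all genes with windows held the letters. The palindrome TGACGTCA, the full cAMP response element, was in 1 of 42 windows (2.38%), that of Syn1, and in 1.55% of all windows. These matches describe letters and not binding.

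Shown here are the windows of the genes without overlap between genotypes that have one, Unc13b at chr4:43058703-43058952 on the plus strand and Sv2c at chr13:96132578-96132827 on the minus strand, and that of Syn1 at chrX:20920919-20921168 on the minus strand. Each is written along the strand of the gene, and capitals mark GCGTG, its reverse complement CACGC, or TGACGTCA.
Unc13b: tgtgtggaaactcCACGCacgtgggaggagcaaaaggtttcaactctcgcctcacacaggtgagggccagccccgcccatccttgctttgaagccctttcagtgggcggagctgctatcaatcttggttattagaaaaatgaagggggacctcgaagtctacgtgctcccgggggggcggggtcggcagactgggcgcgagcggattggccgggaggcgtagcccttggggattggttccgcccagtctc
Sv2c: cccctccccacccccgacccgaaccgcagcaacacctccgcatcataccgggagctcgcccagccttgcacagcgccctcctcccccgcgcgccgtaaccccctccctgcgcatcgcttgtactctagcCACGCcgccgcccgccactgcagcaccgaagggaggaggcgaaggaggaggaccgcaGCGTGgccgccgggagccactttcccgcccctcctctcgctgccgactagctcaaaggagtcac
Syn1: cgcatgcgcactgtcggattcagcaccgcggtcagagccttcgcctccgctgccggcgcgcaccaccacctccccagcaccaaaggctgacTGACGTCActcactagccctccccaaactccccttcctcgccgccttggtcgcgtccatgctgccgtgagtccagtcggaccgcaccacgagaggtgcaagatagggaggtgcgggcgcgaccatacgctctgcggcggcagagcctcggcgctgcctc
The Unc13b window holds 1 such core and that of Sv2c 2, while that of Syn1 holds none and holds the response element. Of these genes Unc13b had the lower values in Ahr-KO, and Sv2c and Syn1 had the higher means. The single window of Slc17a7 held 1 core and the 2 windows of Slc17a6 held none.

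Among active zone proteins, Unc13b had the lowest p of the 39 genes. It encodes Munc13-2, a priming factor that opens syntaxin for SNARE assembly. Its promoter window printed above holds GCGTG 1 time, letters found in 52.4% of release gene windows and 28.2% of all windows. It read 8.42, 8.40 and 8.36 log2 on Ahr-KO arrays 1 to 3, against 8.57, 8.60 and 8.55 on wild-type arrays 1 to 3. Every Ahr-KO array lay below every wild-type array, and the arrays of 1 genotype lay within 0.06 log2 of each other in both genotypes. The means were 8.40 ± 0.03 log2 in Ahr-KO and 8.57 ± 0.03 in wild type (SD, n = 3 each), a difference of -0.18 ± 0.07 or 1.13-fold (95% interval -0.34 to -0.02; limma, unadjusted p = 0.0298, adjusted p = 0.797). The adjusted p was between 0.591 and 0.973 over 16 other settings, and the unadjusted p was above 0.05 in 7 of them. The difference was also -0.18 with Ahr-KO array 1 and wild-type array 2 left out. Beside this, the 13 pan-neuronal markers, among them Map2, Tubb3 and Rbfox3, had a list mean between -0.06 and 0.01 on Ahr-KO arrays and between 0.02 and 0.04 on wild-type arrays, as deviation from the mean over the 6 arrays. Of the 13 means 10 were lower in Ahr-KO (76.9%, against 49.3% of all genes) and 3 higher. At unadjusted p under 0.05, 2 markers were lower, Gap43 (-0.27 ± 0.10) and Nefh (-0.25 ± 0.08), and 0 were higher. That is 15.4% lower and 0% higher, against 2.65% and 3.53% of all genes. The genotypes did not overlap for 4 markers (30.8%, against 11.9% of all genes), 3 below and 1 above, Rbfox3 (0.18 ± 0.08). The part of these markers in the Unc13b difference was not tested. In bulk tissue, fewer cells of a type and less RNA per cell cannot be told apart.

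Its paralogues differed in spread. Unc13a, which encodes Munc13-1, the main priming factor at hippocampal glutamatergic synapses, differed by -0.01 ± 0.07 (95% interval -0.17 to 0.15). Unc13c, which encodes Munc13-3, best known from cerebellar granule cells, read 7.11, 7.67 and 7.81 log2 on Ahr-KO arrays 1 to 3, against 7.82, 7.61 and 7.92 on wild-type arrays 1 to 3. Ahr-KO array 1 lay far below all others, and the remaining Ahr-KO values fell among the wild-type ones. The difference was -0.25 ± 0.17 (limma, unadjusted p = 0.182, adjusted p = 0.842), and it was -0.04 without Ahr-KO array 1. Bsn, which encodes the scaffold Bassoon, read 9.956, 10.050 and 10.004 log2 on Ahr-KO arrays 1 to 3, against 9.919, 9.964 and 9.792 on wild-type arrays 1 to 3. The genotypes overlapped through wild-type array 2, with a difference of 0.11 ± 0.08 (limma, unadjusted p = 0.188, adjusted p = 0.844). Its second, dimmer probe set, with a mean of 6.05 log2, differed by 0.16 ± 0.13. Pclo, the Piccolo scaffold, differed by -0.04 and Erc2, a scaffold that binds RIM, by 0.03. Rims1 and Rims2, the RIM proteins that tether vesicles and calcium channels, differed by -0.05 and -0.04, and Rims3, a shorter RIM form, by -0.16 ± 0.16. Over 16 other settings the difference of Rims3 ran from -0.28 without Ahr-KO array 2 to -0.004 without wild-type array 1. Of the 9 active zone genes 7 had a lower mean in Ahr-KO (77.8%, against 49.3% of all genes), with a median of -0.04. At unadjusted p under 0.05 the only 1 was Unc13b, counted above (11.1%, against 2.65% of all genes lower and 6.18% either way).

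Synaptotagmins, grouped here as calcium sensors though not all of them act as such, had lower means in Ahr-KO for all 5 measured genes (49.3% of all genes did). Their median was -0.07, the value of Syt11, with no gene at unadjusted p under 0.05. Syt4, a synaptotagmin that does not trigger fast release and is also found on dense-core vesicles, read 10.06, 10.13 and 10.07 log2 on Ahr-KO arrays 1 to 3, against 10.19, 10.17 and 10.37 on wild-type arrays 1 to 3. The genotypes did not overlap, although the nearest arrays lay less than 0.05 log2 apart, and the difference was -0.16 ± 0.08 (limma, unadjusted p = 0.0886, adjusted p = 0.817). It was -0.09 without wild-type array 3, the highest array. Of 2 dimmer Syt4 probe sets, 1 with a mean of 4.89 log2 differed by 0.00 ± 0.16. The other, with a mean of 4.11, differed by -0.22 ± 0.13. Both lay below the median of each array (6.39 to 6.41 log2). Syt1, the main sensor of fast release in forebrain, read 12.68, 12.66 and 12.59 log2 on Ahr-KO arrays 1 to 3, against 12.62, 12.59 and 12.76 on wild-type arrays 1 to 3. These values overlapped, with a difference of -0.02 ± 0.08 (95% interval -0.19 to 0.16). Syt2, its close relative at fast-spiking interneuron and hindbrain terminals, read 7.02, 7.43 and 7.03 log2 on Ahr-KO arrays 1 to 3, against 7.41, 7.10 and 7.21 on wild-type arrays 1 to 3. Ahr-KO array 2 and wild-type array 1 were the high arrays, and the genotypes overlapped (-0.08 ± 0.13). Syt7, a slow high-affinity sensor, differed by -0.03 and Syt11, which does not bind calcium in the usual way, by -0.07 ± 0.07.

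Synapsins, which bundle vesicles in the reserve pool, and integral vesicle proteins had 6 of 7 means above wild type (85.7%, against 50.7% of all genes). Their median was 0.02, with no gene at unadjusted p under 0.05. Syn1 read 11.98, 12.11 and 12.04 log2 on Ahr-KO arrays 1 to 3, against 12.01, 11.86 and 11.83 on wild-type arrays 1 to 3. Ahr-KO arrays 2 and 3 lay above all wild-type arrays, and Ahr-KO array 1 below wild-type array 1. The difference was 0.14 ± 0.08, the largest positive one among the 39 (95% interval -0.04 to 0.33; limma, unadjusted p = 0.114, adjusted p = 0.824). Its unadjusted p was 0.0333 with a variance prior that follows intensity and 0.0467 without wild-type array 1, where the difference was 0.20. Syn2 read 11.90, 11.81 and 11.81 log2 on Ahr-KO arrays 1 to 3, against 11.84, 11.85 and 11.76 on wild-type arrays 1 to 3, with overlap (0.02 ± 0.07). Syn3 differed by 0.09 and Syp, the vesicle protein synaptophysin, by 0.02. A dimmer Syp probe set, with a mean of 4.78 log2, differed by 0.09 ± 0.07. Of the SV2 glycoproteins of the vesicle membrane, Sv2c read 7.37, 7.39 and 7.39 log2 on Ahr-KO arrays 1 to 3, against 7.23, 7.36 and 7.29 on wild-type arrays 1 to 3. The genotypes did not overlap, but the lowest Ahr-KO array lay less than 0.01 log2 above wild-type array 2, and the difference was 0.09 ± 0.07 (limma, unadjusted p = 0.245, adjusted p = 0.871). Sv2a and Sv2b differed by 0.00 and -0.01.

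**Figure D2:**
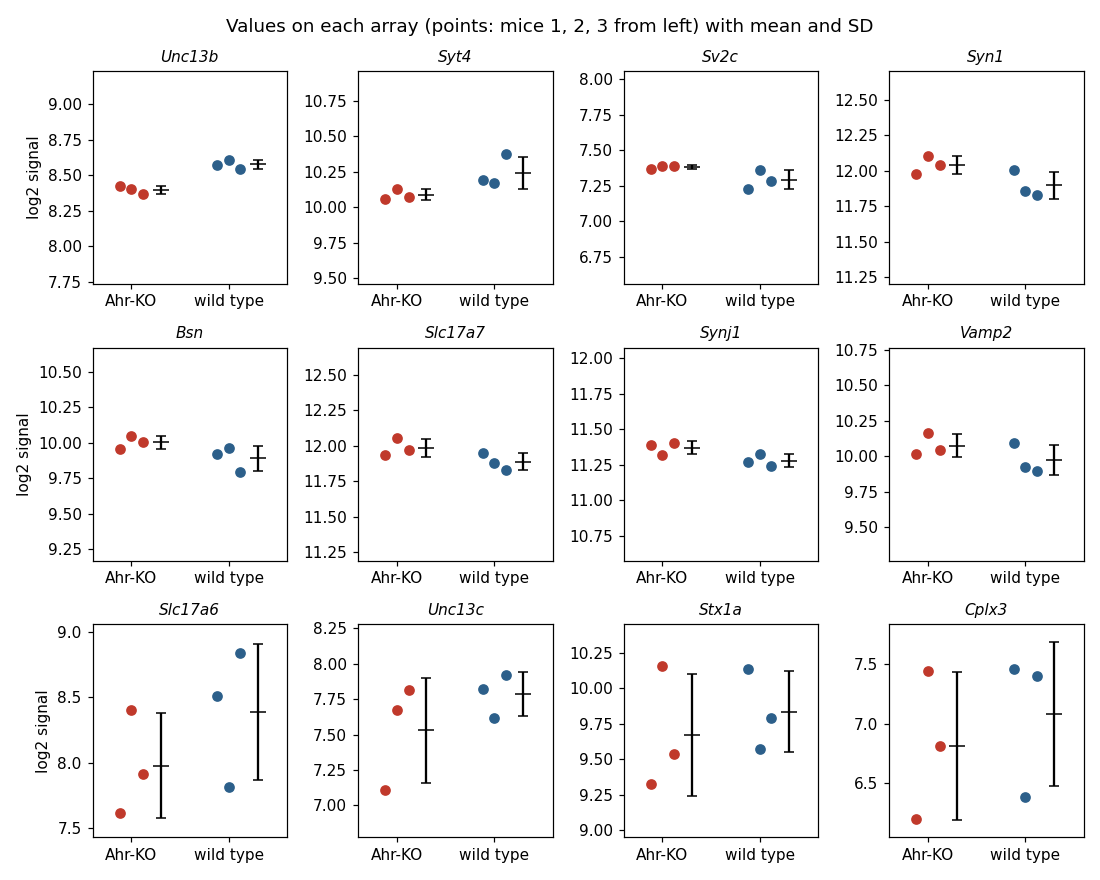
Log2 signal on each array for 12 release genes, with Ahr-KO in red on the left and wild type in blue on the right; points are mice 1 to 3 and bars the mean ± SD (n = 3 each). Panels span at least 1.5 log2, with other ranges per gene. Unc13b, Syt4 and Sv2c show no overlap between genotypes, while Slc17a6, Stx1a and Cplx3 spread by more than 0.5 log2 within each genotype.

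SNARE proteins and the factors that act on them gave no gene at unadjusted p under 0.05. Snap25, the membrane SNARE of regulated release, was among the steadiest genes, with a difference of 0.00 ± 0.07 (95% interval -0.16 to 0.16) and all arrays within 0.09 log2. Vamp2, the main vesicle SNARE of forebrain, read 10.02, 10.17 and 10.04 log2 on Ahr-KO arrays 1 to 3, against 10.10, 9.92 and 9.90 on wild-type arrays 1 to 3. The genotypes overlapped through wild-type array 1 (0.10 ± 0.09; limma, unadjusted p = 0.266, adjusted p = 0.878). Vamp1, which serves fast inhibitory and caudal synapses, read 8.87, 9.10 and 9.03 log2 on Ahr-KO arrays 1 to 3, against 9.12, 8.97 and 8.92 on wild-type arrays 1 to 3, also with overlap (-0.003 ± 0.09). Stx1a, the syntaxin that Munc13 and Snap25 bind, read 9.33, 10.16 and 9.54 log2 on Ahr-KO arrays 1 to 3, against 10.14, 9.58 and 9.79 on wild-type arrays 1 to 3. These values spanned 1.77-fold within Ahr-KO, and the difference of -0.16 ± 0.22 was 0.01 without Ahr-KO array 1 and -0.40 without Ahr-KO array 2. Nsf, the ATPase that separates spent SNARE complexes, differed by -0.03 ± 0.07 and Napb, its adaptor beta-SNAP, by 0.01 ± 0.10.

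Complexins clamp and then assist the assembled SNARE complex. Cplx1 read 11.19, 11.24 and 11.26 log2 on Ahr-KO arrays 1 to 3, against 11.34, 11.29 and 11.17 on wild-type arrays 1 to 3. Its genotypes overlapped (-0.04 ± 0.08). Cplx2, the form most common in excitatory forebrain neurons, read 10.50, 10.40 and 10.36 log2 on Ahr-KO arrays 1 to 3, against 10.37, 10.56 and 10.36 on wild-type arrays 1 to 3. Here too the arrays of the genotypes were interleaved (-0.01 ± 0.09). Cplx3, known from retinal ribbon synapses and deep cortical neurons, read 6.19, 7.44 and 6.81 log2 on Ahr-KO arrays 1 to 3, against 7.46, 6.38 and 7.41 on wild-type arrays 1 to 3. It had the widest spread of the 39 genes, 2.38-fold within Ahr-KO and 2.10-fold within wild type, and the difference of -0.27 ± 0.35 was smaller than either. Over 16 other settings it ran from -0.62 without wild-type array 2 to 0.04, with the sign turned, without Ahr-KO array 1. Among Rab3 GTPases, which mark vesicles for docking, Rab3a, Rab3b and Rab3c differed by 0.02, -0.10 and -0.03. A dimmer Rab3c probe set, with a mean of 7.51 log2, differed by 0.05 ± 0.10.

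Vesicular transporters define the transmitter a terminal releases. Slc17a7, the glutamate transporter VGLUT1 of most hippocampal and cortical excitatory neurons, read 11.94, 12.06 and 11.97 log2 on Ahr-KO arrays 1 to 3, against 11.95, 11.88 and 11.83 on wild-type arrays 1 to 3. Wild-type array 1 fell within the Ahr-KO values, and the difference was 0.10 ± 0.07 (limma, unadjusted p = 0.219, adjusted p = 0.858). Slc17a6, the transporter VGLUT2 of thalamic and other subcortical inputs, read 7.62, 8.40 and 7.91 log2 on Ahr-KO arrays 1 to 3, against 8.51, 7.82 and 8.83 on wild-type arrays 1 to 3. The highest array was wild type and the lowest Ahr-KO, with overlap between. The difference of -0.41 ± 0.27 was the largest of the 39 in either direction, at 1.33-fold (95% interval -1.03 to 0.21; limma, unadjusted p = 0.168, adjusted p = 0.842). It moved with single arrays, to -0.69 without wild-type array 2, -0.62 without Ahr-KO array 2, -0.23 without Ahr-KO array 1 and -0.18 without wild-type array 3. Its unadjusted p was under 0.05 in 2 of 16 other settings, at 0.0148 without wild-type array 2 and 0.0280 without both that array and Ahr-KO array 1 (limma, adjusted p = 0.772 and 0.788). A list of 12 thalamic markers included Tcf7l2 and Lef1. Its mean lay between -0.02 and 0.07 on Ahr-KO arrays and between -0.05 and 0.00 on wild-type arrays. Of the 12 means 8 were higher in Ahr-KO (66.7%, against 50.7% of all genes) and 4 lower. At unadjusted p under 0.05, 1 marker was higher, Gbx2 (0.26 ± 0.10; 8.33%, against 3.53% of all genes), and 0 were lower. The genotypes did not overlap for 1 marker, Rora, which was lower (-0.19 ± 0.08; 8.33%, against 11.9% of all genes). The part of these markers in the Slc17a6 values was not tested. Slc32a1, the GABA and glycine transporter VGAT, differed by 0.10 ± 0.10, and its dimmer probe set, with a mean of 5.19 log2, by -0.01. Beside it, the mean of 11 interneuron markers lay between -0.06 and 0.10 on Ahr-KO arrays and between -0.03 and 0.08 on wild-type arrays, with markers going both ways. At unadjusted p under 0.05, 2 of the 11 were higher, Cort (0.51 ± 0.11) and Lhx6 (0.24 ± 0.08), and 1 was lower, Pvalb (-0.39 ± 0.12). That is 27.3% in all, against 6.18% of all genes. The genotypes did not overlap for 5 of the 11 (45.5%, against 11.9% of all genes). Of these, 4 had all Ahr-KO arrays above, namely Gad1 (0.14 ± 0.07), Sst (0.13 ± 0.07), Cort and Lhx6, and 1 had them below, Pvalb. The part of interneurons in the Slc32a1 value was not tested. Of the endocytic genes, Synj1, the phosphatase synaptojanin that uncoats vesicles, read 11.39, 11.32 and 11.40 log2 on Ahr-KO arrays 1 to 3, against 11.27, 11.33 and 11.24 on wild-type arrays 1 to 3, with 1 Ahr-KO array inside the wild-type range (0.09 ± 0.07). Dnm1, the dynamin that cuts vesicles from the membrane, and Amph, the amphiphysin that recruits it, differed by -0.02 and 0.06.

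Some release genes varied widely between mice of one genotype. The SD within genotype had a median of 0.07 log2 over the 39 genes and 0.11 over all genes, and ranged from 0.03 (Unc13b and Snap25) to 0.62 (Cplx3). It was above 0.2 in 5 genes (12.8%, against 13.7% of all genes), the same 5 that had wide intervals. All 5 had their lowest value of each genotype on array 1 of Ahr-KO and array 2 of wild type, the arrays with high choroid plexus genes. In all, 9 of 39 genes did so (23.1%, against 12.7% of all genes), namely Cplx3, Slc17a6, Stx1a, Unc13c, Rims3, Syt2, Syt4, Rab3b and Syp, and 5 had their highest value of each genotype there (12.8%, against 11.6%), namely Syn2, Sv2b, Cplx2, Nsf and Unc13b. Ttr, the transthyretin of choroid plexus epithelium, read 13.15, 9.06 and 8.64 log2 on Ahr-KO arrays 1 to 3, against 8.90, 12.64 and 9.03 on wild-type arrays 1 to 3. With the choroid plexus mean of each array as a covariate, the SE of Cplx3 was 0.17 in place of 0.35, with a difference of -0.16. That of Slc17a6 was 0.17 in place of 0.27, with a difference of -0.33. This fit is given for these 2 genes only. Both were lowest of their genotype on the 2 arrays where the covariate was high. Their smaller SE follows from that pattern and is no separate result. Without those 2 arrays, which leaves 2 per genotype, the differences were -0.31 for Cplx3, -0.51 for Slc17a6, -0.12 for Stx1a, -0.13 for Unc13c and -0.11 for Rims3. They were -0.08 for Syt2, -0.18 for Syt4, -0.14 for Rab3b and -0.01 for Syp, whose sign thereby turned. Of these 9 genes only Slc17a6 had an unadjusted p under 0.05 there, and none an adjusted one. The part of choroid plexus tissue in these genes was not tested.

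**Figure D3:**
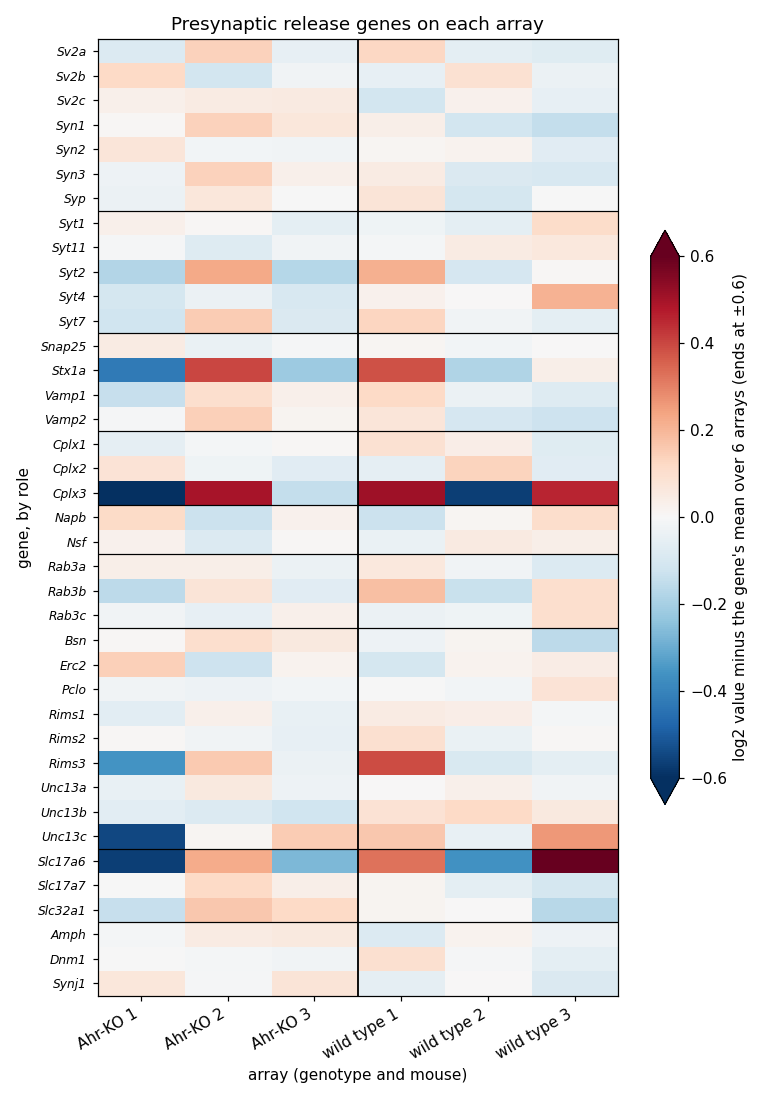
Log2 value minus the gene's mean over the 6 arrays, for 39 release genes by role (rows, separated by lines) on 3 Ahr-KO arrays (left) and 3 wild-type arrays (right). Cplx3, Slc17a6, Stx1a, Unc13c and Rims3 are lowest of their genotype on Ahr-KO array 1 and wild-type array 2, and most other genes stay near 0.

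Across the list, the mean deviation of the 39 genes was -0.08, 0.06 and -0.02 log2 on Ahr-KO arrays 1 to 3, against 0.07, -0.04 and 0.02 on wild-type arrays 1 to 3. Ahr-KO array 1 had the lowest value of its genotype for 23 of 39 genes (59.0%, against 37.9% of all genes), and wild-type array 1 the highest of its genotype for 20 (51.3%, against 35.5%). Markers of most other cell types were also low on Ahr-KO array 1. Means there were -0.15 for striatal, -0.07 for astrocyte, -0.06 for pan-neuronal and -0.05 for interneuron markers. Those of CA pyramidal and thalamic markers were -0.03 and -0.02, with 53.8% and 58.3% of these markers lowest of Ahr-KO on this array. On the other side, the mean of 12 granule neuron markers was 0.04 on this array, with 25% lowest of Ahr-KO. Choroid plexus markers (1.24) and the 1 blood marker measured (0.17) were also above 0 there. The mean of 9 oligodendrocyte markers was -0.34 on Ahr-KO array 1, against 0.02 to 0.13 on the other 5 arrays, and all 9 were lowest of the 6 arrays there. The mean of 9 microglia markers was -0.16, 0.18 and 0.01 on Ahr-KO arrays 1 to 3, against 0.05, -0.08 and -0.01 on wild-type arrays 1 to 3, and all 9 were lowest of Ahr-KO on array 1. The part of these cell types in the release gene values was not tested. The release genes varied with the mouse in both genotypes, and the genotype ranges of the list mean overlapped.

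**Figure D4:**
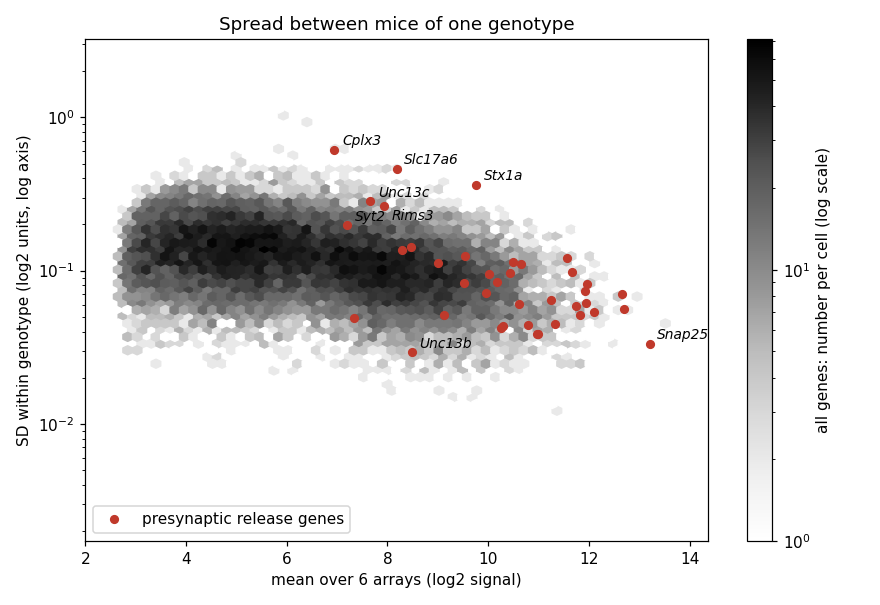
SD within genotype (log2 units, log axis, pooled over both genotypes) against mean log2 signal for all genes (grey cells, darker for more genes) and the 39 release genes (red). Cplx3, Slc17a6 and Stx1a lie at the upper edge, and Unc13b and Snap25 near the lower edge.

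Other genes of the release pathway were taken from a list of 83, of which 77 were measured. Of these, 1 was higher and 1 lower in Ahr-KO at unadjusted p under 0.05, 1.30% in each direction against 3.53% and 2.65% of all genes, and 0 passed the adjusted threshold. Their median difference was -0.02 log2, with 29 means higher and 48 lower (62.3%, against 49.3% of all genes). Stxbp6, which binds SNARE proteins as amisyn and is also a marker of dentate granule neurons, read 9.36, 9.24 and 9.31 log2 on Ahr-KO arrays 1 to 3, against 9.04, 9.01 and 9.10 on wild-type arrays 1 to 3. The genotypes did not overlap (0.25 ± 0.07; limma, unadjusted p = 0.00799, adjusted p = 0.770). Beside it stood 12 granule neuron markers, Stxbp6 included. Their mean lay between 0.03 and 0.07 on Ahr-KO arrays and between -0.14 and 0.06 on wild-type arrays. Of the 12 means 10 were higher in Ahr-KO (83.3%, against 50.7% of all genes). At unadjusted p under 0.05, 3 of the 12 were higher in Ahr-KO, Stxbp6 itself, Prox1 (0.28 ± 0.10) and Trpc6 (0.28 ± 0.09), and 0 were lower. That is 25% for the higher side, against 3.53% of all genes. This share counts Stxbp6, so it is not independent of the Stxbp6 value. The part of granule neurons in the Stxbp6 value was not tested. Syt10, a synaptotagmin linked to growth factor release, read 9.08, 8.94 and 9.01 log2 on Ahr-KO arrays 1 to 3, against 9.19, 9.23 and 9.47 on wild-type arrays 1 to 3, again without overlap (-0.29 ± 0.09; limma, unadjusted p = 0.0152, adjusted p = 0.770). Next in order were Cask, a presynaptic scaffold kinase (0.13 ± 0.07), and Unc13d, the Munc13 of blood cell granules (0.13 ± 0.07), on the higher side. Apba1, the adaptor Mint1 (-0.15 ± 0.07), and Itsn1, an endocytic scaffold (-0.14 ± 0.07), were next on the lower side, and these 4 did not pass unadjusted p under 0.05.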

How the data were processed

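Total RNA of dissected hippocampi was labelled with an Affymetrix whole-transcript kit, per the labels' protocols, with 1 array for each of 6 mice. The authors deposited log2 signals per probe set, and RMA and Affymetrix Expression Console are named per the submitters' processing notes. Versions are not stated. RMA quantile-normalises the arrays together, which removes a shift common to all genes and tends to compress fold changes. The authors' annotation and genome build are not stated there. Probe-level values, detection calls and scan dates were not used here, so batches could not be examined.

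Of 41345 rows 23521 had 1 gene symbol, and 1814 had several. Symbols were updated through Entrez IDs to RefSeq (23328 matched). The brightest probe set per gene was tested with limma 3.58.1 in R 4.3.3 (no trend, no covariate, 4 residual and 4.33 prior degrees of freedom), two-sided, with Benjamini-Hochberg adjustment over 22180 genes. With 5 of 39 genes the choice was between several probe sets. The labels name a separate mouse for each array; nothing in them pairs mice across genotypes. The number of arrays limits the precision. The fit was tested on simulated data with independent noise in each gene. Those data lack differences shared by the genes of an array, and their added shifts were larger than any difference of the 39 genes. They thus do not gauge these results.

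The genes and lists were chosen with earlier results of these data known, so lists are described by counts and medians only. All 39 genes are named; values on every array are given for the 10 with the lowest p, for those without overlap and for 5 family pairs. Unc13c and Slc17a6 are among the 10, while values of Stx1a and Cplx3 are shown for their spread, after it was seen. Of the other pathway genes the 3 per direction with the lowest p are named. Alternatives covered the variance model, array weights, normalization, a filter on dim probe sets, the probe set per gene, a replicate block, each array left out, and the arrays with choroid plexus signal left out or used as a covariate. Figures were drawn with matplotlib 3.10.9.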

Additional observations from a re-analysis of the deposited data

How the results depend on the processing

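No release gene had an adjusted p under 0.05 in any of 16 other settings (lowest 0.591, Unc13b with array weights), and over all genes 0 passed except 2 with a variance prior that follows intensity. At unadjusted p under 0.05 the count of release genes, 1 as reported, was 3 with that prior (Syn1 higher, Unc13b and Syt4 lower; 7.69%, against 6.52% of all genes), 0 with quantile normalization once more (5.95% of all genes) and 0 with a replicate block (5.06%). It was between 0 and 1 with each array left out, against 5.07% to 7.22% of all genes (Unc13b without Ahr-KO array 1 or wild-type array 3, Stx1a without Ahr-KO array 2, none without Ahr-KO array 3, Syn1 without wild-type array 1 and Slc17a6 without wild-type array 2). The count of genes without overlap, 3 as reported, was 5 with quantile normalization (12.8%, against 11.8% of all genes) and 4 to 11 with each array left out (19.7% to 24.4% of all genes). It was 16 without Ahr-KO array 1 and wild-type array 2, where fewer arrays make overlap rarer (34.6% of all genes). Other pathway genes at unadjusted p under 0.05 numbered 4 with that prior, against 2. The median difference stayed between -0.02 and 0.00. Of the 39 genes 20 kept their sign in all 16 settings, among them Unc13b (-0.19 to -0.15), Syt4, Slc17a6 and Syn1. Same-numbered arrays share only a number and did not deviate together (r = -0.15, -0.22 and 0.05 between deviations from the genotype means, across genes), the arrays did not all correlate best with their own number, and with the replicate block the difference of Unc13b had unadjusted p = 0.0635 (limma, adjusted p = 0.926). With 3 arrays per genotype, changes in the 5 genes with wide intervals are the least bounded.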
